A study of Mus musculus with 10 samples.

Results

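The genes described here encode the integrins, the laminins and a few proteins tied to them in hemidesmosomes or the basement membrane, as measured in mouse hair follicle stem cells (HFSCs). They were chosen by symbol: all integrin alpha and beta chains, all laminin alpha, beta and gamma chains, and Dst, Cd151, Nid1 and Nid2. The rule found 41 genes among the 37298 rows of the expression table, and no expression value entered it. Of the 41, 21 reached a mean of at least 1 FPKM (fragments per kilobase, scaled to the mapped fragments of a library) over the RNA libraries and could be tested, and 20 stayed below that filter.

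RNA sequencing covered 4 libraries of HFSCs, the stem cells of the hair follicle bulge. They were taken from the back skin of mice in telogen, when follicles rest, and sorted as integrin α6-high, CD34+, ScaI-, YFP+ cells; the strain is given as "C57BL6, mixed". The libraries labelled Sox9 cKO (conditional knockout of the transcription factor gene Sox9) number 2, as do the controls, whose titles call them heterozygous and whose genotype field calls them wild type. All 4 were treated with RU486, which activates CrePGR, a Cre recombinase fused to the progesterone receptor; the labels name no promoter for it. Replicate 1 of both genotypes was male, taken at day 75 after treatment on days 48 to 61, and replicate 2 was female, taken at day 80 after treatment on days 53 to 66. SOX9 binding came from 3 lists of ChIP-seq peaks of untreated CD-1 females of days 52 to 60, 2 lists from HFSCs and 1 from interfollicular epidermal (IFE) cells sorted as integrin α6-high, CD34- and ScaI-. No label tells if 1 mouse or a pool gave a library, so the spread between libraries may be partly technical.

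Integrins are receptors of the cell surface, each made of an alpha and a beta chain, that bind proteins of the extracellular matrix. Laminins are trimers of an alpha, a beta and a gamma chain that form the basement membrane, the sheet on which basal keratinocytes and bulge stem cells sit. In hemidesmosomes the integrin α6β4 binds laminin-332 outside the cell and, through plectin and the epithelial form of dystonin, the keratin filaments inside it. Because the cells were sorted for high integrin α6, a high level of its gene is a property of the sort.

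Sox9 stood at 71.3 and 80.5 FPKM in the replicate 1 and 2 cKO-labelled libraries, against 82.7 and 46.5 FPKM in the replicate 1 and 2 controls. It was lower than its control in the replicate 1 pair only, so directions below follow the labels and the libraries are called "cKO-labelled". The FPKM of Sox9 covers the whole gene and does not show whether the deleted part is absent. Markers of basal epidermis and bulge summed to 18490 and 22974 FPKM in cKO-labelled libraries and 20352 and 19194 in the controls, with all 10 genes found. Krt5, Krt14 and Krt15 made up most of these sums, which therefore do not show the other genes. Lhx2 stood at 114 and 87.1 FPKM in cKO-labelled libraries and 359 and 195 FPKM in the controls. Cd34, Lgr5, Lhx2 and Nfatc1 were lower than their control in both pairs, and the remaining markers in the replicate 1 pair only. The 7 suprabasal markers, genes of differentiating epidermis, summed to 4033 and 8108 FPKM in cKO-labelled libraries and 4302 and 12719 in the controls. This sum was higher in both replicate 2 libraries and, within replicate 2, lower in the cKO-labelled one. Sums of 6 endothelial markers stayed below 0.5 FPKM in every library. The 13 leukocyte markers found summed to 55.2 and 101 FPKM in cKO-labelled libraries and 57.3 and 150 in the controls. The 6 smooth muscle and pericyte markers summed to 43.1 FPKM in the replicate 2 cKO-labelled library and to between 2.18 and 3.45 FPKM in the others. The 7 fibroblast markers summed to 22.5 and 22.4 FPKM in cKO-labelled libraries and to 16.9 and 8.64 in the controls. Most of each sum was Col1a2, at 21.9 and 13.8 FPKM in cKO-labelled libraries and 14.8 and 7.40 in the controls. Col1a1 stood at 0.336 and 6.99 FPKM in cKO-labelled libraries and 1.80 and 0.802 in the controls. Col3a1 (0.785 FPKM) and Lum (0.386 FPKM) were also highest in the replicate 2 cKO-labelled library. Dcn, Dpt and Pdgfra reached at most 0.341 FPKM in any library. Melanocyte markers summed to between 1.08 and 3.22 FPKM and Schwann cell markers to between 7.66 and 10.4 FPKM over the libraries. In these sorted bulk samples, fewer cells of a type and less RNA per cell cannot be told apart.

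By mean FPKM over the 4 libraries, Lamb3 of laminin-332 and the hemidesmosome genes Dst and Itgb4 stood highest among the members, in this order. Both replicate 1 libraries held the same order. In both replicate 2 libraries Lamb3 stayed highest, while Dst lay below Itgb4 and Cd151. FPKM is scaled by transcript length, but values of long and short loci shifted against each other between the replicates (given below), so levels of different genes are compared within a library. Dst (ENSMUSG00000026131, mm9 chr1:33965124-34365495), which encodes dystonin (BPAG1), stood at 272 and 96.4 FPKM in cKO-labelled libraries and 309 and 114 FPKM in the controls. Itgb4 (ENSMUSG00000020758, chr11:115836022-115869726), the β4 chain, stood at 189 and 145 FPKM in cKO-labelled libraries and 230 and 127 FPKM in the controls. Itga6 (ENSMUSG00000027111, chr2:71583672-71696473), its partner, stood at 151 and 66.4 FPKM in cKO-labelled libraries and 145 and 58.2 FPKM in the controls. For both chains the replicate 1 libraries were the high ones, whatever the genotype label. Cd151, a tetraspanin that binds laminin-binding integrins, ran the other way, with 99.0 and 143 FPKM in cKO-labelled libraries and 97.8 and 138 FPKM in the controls. Cd151 shares its locus in the table with Efcab4a (42.0 and 81.7 FPKM in cKO-labelled libraries, 34.4 and 63.5 FPKM in the controls), so how reads were divided between the 2 genes is uncertain.

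Lama3 and Lamb3 encode the alpha and beta chains of laminin-332. Lamb3 (ENSMUSG00000026639, mm9 chr1:195128150-195170072) had the highest mean of the members, at 355 and 248 FPKM in cKO-labelled libraries and 344 and 227 FPKM in the controls, and ranked 397 among all rows by mean FPKM. Lama3 stood at 67.4 and 24.7 FPKM in cKO-labelled libraries and 60.6 and 22.5 FPKM in the controls. These chains of one trimer were thus listed at unequal levels: Lamb3 exceeded Lama3 by 5.26 and 10.1 times in cKO-labelled libraries and by 5.68 and 10.1 times in the controls. This ratio moved with the replicate, and Lama3 has the longer locus (249 kb against 41.9 kb).

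Among the integrins that pair with β1, Itgb1 itself stood at 120 and 86.2 FPKM in cKO-labelled libraries and 125 and 71.1 FPKM in the controls. Itga3, whose product joins β1 in a laminin receptor of focal adhesions, stood at 88.3 and 48.8 FPKM in cKO-labelled libraries and 96.6 and 51.6 FPKM in the controls. Itga2 (ENSMUSG00000015533, mm9 chr13:115626123-115722249), the collagen-binding partner of β1 in keratinocytes, stood at 19.1 and 4.74 FPKM in cKO-labelled libraries and 20.2 and 4.47 FPKM in the controls. Its replicate 1 libraries both lay far above its replicate 2 libraries, and the genotypes overlap. The other collagen-binding chains, Itga1, Itga10 and Itga11, and the laminin-binding Itga7 stayed below the filter, at 1.43 FPKM or less in every library. The locus listed for Itga1 is shared with Pelo (4.28 to 8.69 FPKM), so its low value is uncertain.

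Receptors for RGD sequences, the short integrin-binding sites of fibronectin, vitronectin and latent TGF-beta, were led by the αv chain and β5. Itgav stood at 46.4 and 29.9 FPKM in cKO-labelled libraries and 57.9 and 31.9 FPKM in the controls. Itgb5 stood at 52.1 and 42.3 FPKM in cKO-labelled libraries and 58.5 and 58.3 FPKM in the controls. Itgb6 and Itgb8 encode the partners with which αv activates latent TGF-beta. Itgb6 stood at 23.7 and 7.35 FPKM in cKO-labelled libraries and 24.3 and 7.72 FPKM in the controls, and Itgb8 at 5.70 and 1.85 FPKM in cKO-labelled libraries and 9.95 and 3.98 FPKM in the controls. Itga5, the fibronectin receptor chain, stood at 9.27 and 9.97 FPKM in cKO-labelled libraries and 13.2 and 5.28 FPKM in the controls. Itga2b, known from platelets, stood at 2.96 and 4.95 FPKM in cKO-labelled libraries and 3.05 and 2.46 FPKM in the controls. Itga4, Itgb3, Itga8 and Itga9 stayed below the filter, the highest value being 0.862 FPKM for Itga4 in the replicate 1 control. Itga8, whose product on the arrector pili muscle binds nephronectin of the bulge, was listed at 0 in both replicate 2 libraries and at 0.0862 FPKM or less in replicate 1.

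By summed FPKM, Itgb4, Itgb1 and Itgb5 made up 92.3% and 96.5% of all beta chains in cKO-labelled libraries and 92.2% and 95.3% in the controls. Itga6, Itga3 and Itgav made up 86.6% and 74.8% of all alpha chains in cKO-labelled libraries and 86.3% and 80.4% in the controls. Itgb4 alone held 48.4% and 51.1% of the beta sum in cKO-labelled libraries and 51.3% and 47.3% in the controls.

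**Figure D1:**
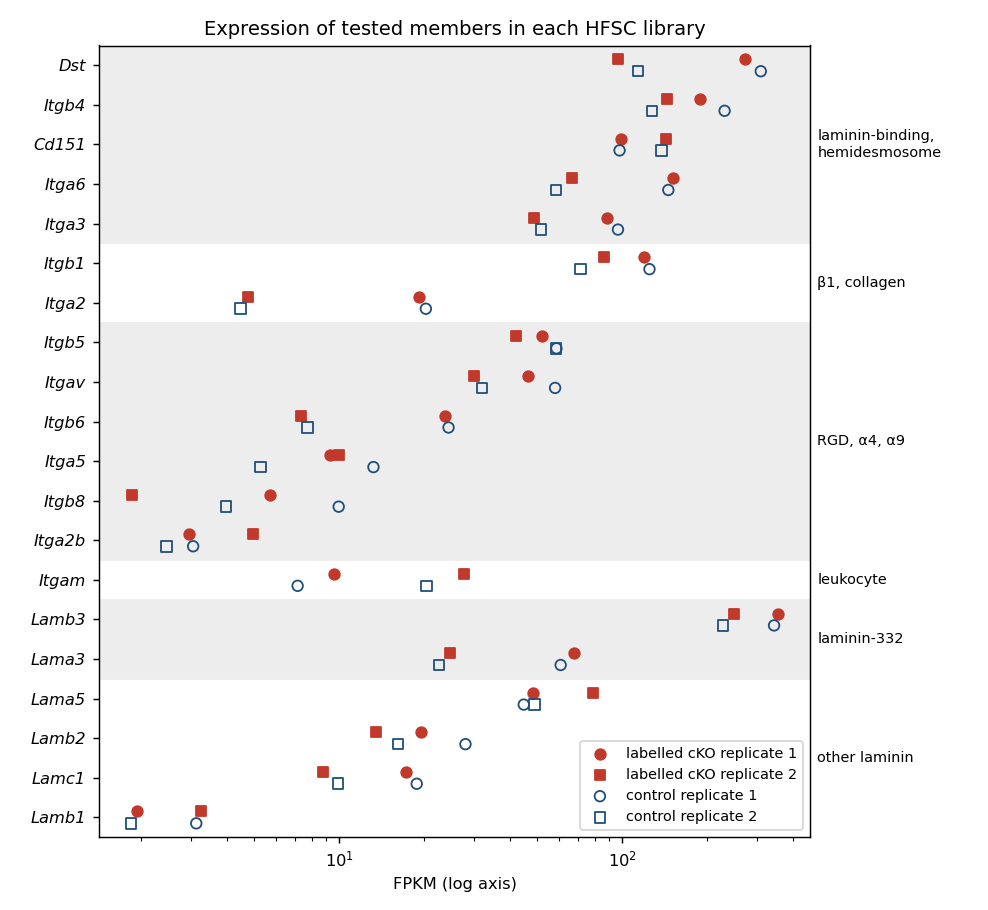
FPKM (log axis) of 20 tested members in each of the 4 RNA libraries, with members grouped by role and ordered by mean within a role; filled red marks are cKO-labelled libraries, open blue marks the controls, circles replicate 1 and squares replicate 2. Lamb3 lies furthest to the right, at 227 to 355 FPKM, and for 13 of them both squares lie left of both circles.

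Integrins known from leukocytes were near 0, with 1 exception. Itgam (ENSMUSG00000030786, mm9 chr7:135206153-135271674), which encodes CD11b, stood at 9.57 and 27.6 FPKM in cKO-labelled libraries and 7.13 and 20.3 FPKM in the controls. Its obligate partner Itgb2 stood at 0.154 and 0.0525 FPKM in cKO-labelled libraries and 0.165 and 0.520 FPKM in the controls. Itgal, Itgax, Itgad, Itgae and Itgb7 reached at most 0.599 FPKM. The leukocyte marker Ptprc (CD45) was between 0.152 and 0.390 FPKM, while Cd74 and H2-Aa of the MHC class II pathway together made up most of the leukocyte sum; Cd74 alone stood at 27.8 and 46.4 FPKM in cKO-labelled libraries and 28.4 and 71.0 FPKM in the controls. The part of leukocytes in the Itgam value was not tested.

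Of the other laminin chains, Lama5 was highest, at 48.2 and 78.8 FPKM in cKO-labelled libraries and 44.9 and 49.0 FPKM in the controls. Its product is the alpha chain of laminin-511, the other major laminin of skin. Lamb2 stood at 19.4 and 13.5 FPKM in cKO-labelled libraries and 27.9 and 16.1 FPKM in the controls. Lamc1 stood at 17.3 and 8.74 FPKM in cKO-labelled libraries and 18.8 and 9.88 FPKM in the controls. Lamb1, the usual beta chain of laminin-511, was low, at 1.92 and 3.25 FPKM in cKO-labelled libraries and 3.12 and 1.84 FPKM in the controls. Lama3 held 57.7% and 23.6% of the summed laminin alpha chains in cKO-labelled libraries and 56.6% and 31.2% in the controls, and Lama5 held 41.3% and 75.4% against 41.9% and 68.0%. Lama3 thus led in replicate 1 and Lama5, whose locus is shorter (49.5 kb against 249 kb), in replicate 2. Lama1, Lama2, Lama4 and Lamc3 stayed below the filter, and none exceeded 1.41 FPKM in a library.

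The nidogens, which link laminin and collagen IV networks, were close to 0. Nid1 stood at 0.0465 and 1.07 FPKM in cKO-labelled libraries, against 0.0206 FPKM in the replicate 1 control and 0 in the replicate 2 control. The single higher value lies in the library whose smooth muscle markers were also highest. Acta2 was 35.8 FPKM there and 2.02 to 2.81 FPKM elsewhere, and Des 5.01 FPKM there and listed at 0 elsewhere. The fibroblast markers Col1a1 and Col3a1 were also highest there, at 6.99 and 0.785 FPKM, while Col1a2 was not. The part of such cells in the Nid1 value was not tested. Nid2 reached at most 0.278 FPKM and shares its locus with 2700060E02Rik, which stood at 31.7 to 88.1 FPKM.

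Setting cKO-labelled libraries against controls asks how loss of Sox9 alters expression in HFSCs, and no member passed its threshold. limma compared log2(FPKM + 1) over 14455 genes, and a call was an adjusted p under 0.05. Without a term for the replicate number limma called 0 of 21 members, as it called 0 of all genes (0.0% called; 93 genes, or 0.643%, and 0 members had an unadjusted p under 0.05). Adding the replicate number as a block, which removes the difference between the male and the female pair, limma called 0 of 21 members, where 0.284% of all genes were called, 0.104% higher and 0.18% lower. At an unadjusted p under 0.05 this blocked fit held 3 of 21 members, Itgb8, Itgam and Lamb2, against 11.4% of all genes. Of the basal and bulge markers given above only Lhx2 was called, with a log2 change of -1.40 ± 0.15 (limma with the block, adjusted p = 0.0273). Changes given below are log2 differences, labelled cKO minus control, with limma's moderated SE from the blocked fit (n = 2 libraries a group).

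Itgb8 (ENSMUSG00000025321, mm9 chr12:120396494-120477275) was the member with the largest difference. It was lower in the cKO-labelled library within both pairs, by log2 differences of -0.71 in replicate 1 and -0.80 in replicate 2. The values of the 2 groups overlap, since the replicate 1 cKO-labelled library (5.70 FPKM) stands above the replicate 2 control (3.98 FPKM). The mean change was -0.76 ± 0.19 (SE) and did not pass (limma with the block, adjusted p = 0.284; adjusted p = 1.00 without it). With 1 library left out and no block it ranged from -1.37 to -0.14. Itgb8 was 1 of 21 members, and the only one, to differ by at least 0.5 in the same direction in both pairs, against 1.72% of all tested genes that were lower and 0.913% that were higher by this rule. Relative to Itgav, the chain it pairs with, Itgb8 stood at 0.123 and 0.0620 in cKO-labelled libraries and 0.172 and 0.125 in the controls.

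Itgam was higher within both pairs (0.38 and 0.42), with a mean change of 0.40 ± 0.15 (limma with the block, adjusted p = 0.397). Lamb2 was lower within both pairs (-0.50 and -0.24), with a mean of -0.37 ± 0.15 (limma with the block, adjusted p = 0.420). Itgb5 (ENSMUSG00000022817, mm9 chr16:33829750-33949239) was the only member whose groups did not overlap, with both cKO-labelled libraries below both controls; its log2 difference was -0.31 ± 0.14 (limma with the block, adjusted p = 0.451). That is 1 of 21 members, where 8.42% of tested genes had both cKO-labelled libraries below both controls; 0 members had both above, against 5.47% of tested genes. Lama5 had a log2 difference of 0.39 ± 0.16 (limma with the block, adjusted p = 0.438), with 0.10 in the replicate 1 pair and 0.67 in the replicate 2 pair. In the replicate 2 pair Itga5 (0.81), Itga2b (0.78) and Lamb1 (0.58) were also higher. The cKO-labelled library of that pair is the one with the high smooth muscle sum and the highest Col1a1 and Col3a1. The part of such cells in these values was not tested.

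In the core of the hemidesmosome no gene passed between genotypes. The mean changes were -0.21 ± 0.12 for Dst, -0.05 ± 0.15 for Itgb4, 0.12 ± 0.12 for Itga6 and 0.03 ± 0.12 for Cd151 (limma with the block, adjusted p from 0.561 to 0.945). For these chains of laminin-332 the changes were 0.09 ± 0.12 for Lamb3 and 0.14 ± 0.13 for Lama3, and both were higher in the cKO-labelled library within both pairs without passing (limma with the block, adjusted p from 0.745 to 0.843). With quantile normalization the change of Lamb3 turned to -0.09. Itgb1 and Itga3 had a log2 difference of 0.11 ± 0.13 and -0.10 ± 0.12. Over all 21 members, 7 were higher and 8 lower in both pairs and 6 went opposite ways, against 28.4% of tested genes higher and 29.6% lower in both pairs. The median change of the members was 0.03 and that of all tested genes -0.01.

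**Figure D2:**
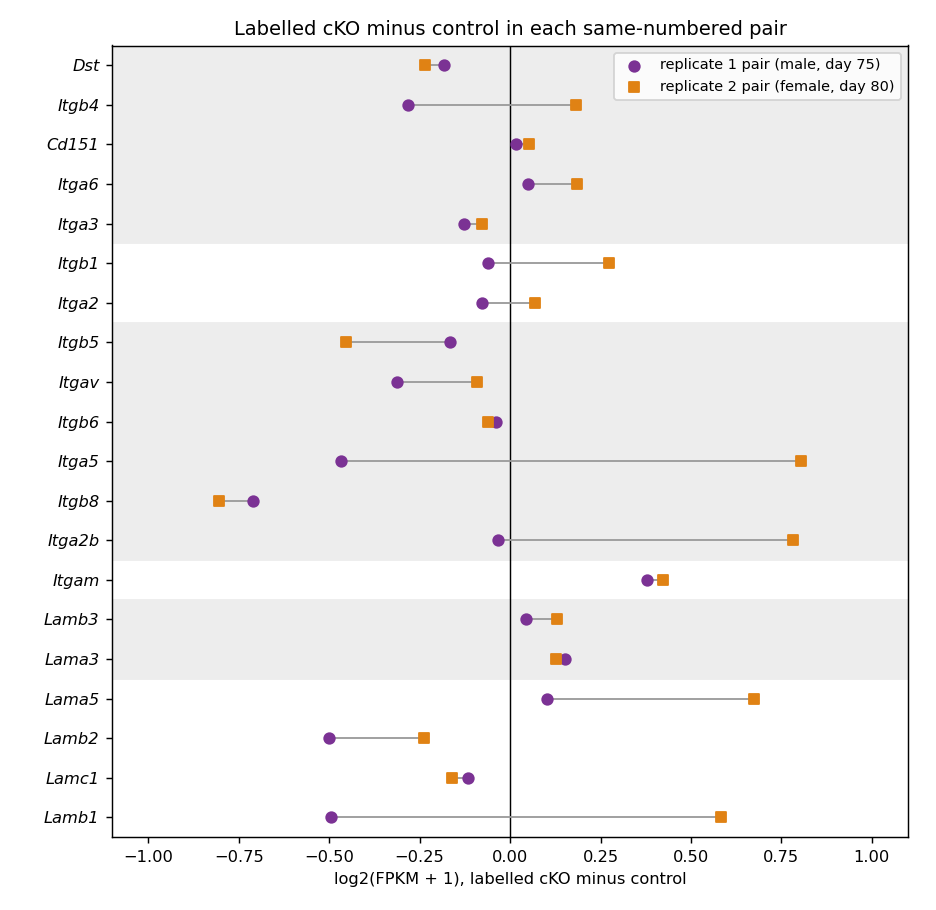
Log2(FPKM + 1) in the cKO-labelled library minus its same-numbered control, for 20 tested members; circles are the replicate 1 pair, squares the replicate 2 pair, and the grey line joins them. Itgb8 lies at -0.71 and -0.80, while Itga5, Lamb1 and Itga2b have pairs that lie on opposite sides of 0.

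More members passed between the replicates than between the genotypes. Replicate 2 against replicate 1, with genotype as a term, gave 14 members lower and 2 higher at an adjusted p under 0.05 (limma), where 24.1% of all tested genes were lower and 25.8% higher. Several suprabasal markers moved the other way. Lor was higher in replicate 2 by 2.89 ± 0.14 (limma, adjusted p = 0.000333) and Krtdap by 1.76 ± 0.17 (limma, adjusted p = 0.000371). Krt10 was higher by 0.87 ± 0.19 (limma, adjusted p = 0.00894), and Ivl (0.83 ± 0.16) and Sbsn (0.61 ± 0.17) also passed. Krt1, at -0.24 ± 0.12, and the rows of Flg, at 0.028 to 0.39, did not pass. Of the basal and bulge markers, Nfatc1 (-1.78), Lgr5 (-1.57), Tcf7l1 (-1.34), Trp63 (-0.82) and Lhx2 (-0.63) were called lower in replicate 2 and Krt14 (0.51) higher (limma). Krt5, Krt15, Cd34 and Sox9 did not pass. The part of differentiating cells in the members' difference was not tested. The median difference of the members was -0.64 and that of all tested genes 0.00. Related gene lists described below also held such calls (limma). Of 24 tested integrin adaptors 14 were lower and 2 higher (median -0.69), and of 19 other basement membrane genes 11 and 1 (median -0.46). Of 9 other hemidesmosome and basal surface genes 4 were lower and 2 higher (median 0.04). Of 12 other integrin ligands 4 were lower and 0 higher (median -0.06). Sex, age, the days of RU486 treatment and any difference between library preparations change together here and cannot be told apart. Both replicate 2 libraries stood below both replicate 1 libraries for 14 of 21 members, against 37.5% of tested genes, and above them for 3, against 37.9%. Fits with 1 library left out held no genotype term and left a replicate with a lone library. Their residual spread rested on the difference between the genotypes within the other replicate. A changed number of calls therefore does not show which libraries carry the difference, and no calls of these fits are given. In these fits the lone library of a replicate is assumed to vary like the others.

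Itga2 differed most, by -1.88 ± 0.16 (SE, limma, adjusted p = 0.000333), with -1.81 in cKO-labelled libraries and -1.96 in controls. Itgb6 followed at -1.55 ± 0.15 (limma, adjusted p = 0.000379), Dst at -1.46 ± 0.12 (limma, adjusted p = 0.000333), Lama3 at -1.40 ± 0.13 and Itga6 at -1.24 ± 0.12. Itgb8 was lower by -1.18 ± 0.19 (limma, adjusted p = 0.00265). The called members nearest to 0 were Lamb3 at -0.55 ± 0.12 and Cd151, which was higher by 0.51 ± 0.12 (limma, adjusted p = 0.0115; -0.01 with quantile normalization). Itgam was higher by 1.41 ± 0.15 (limma, adjusted p = 0.000486), and the summed leukocyte markers given above were also higher in replicate 2; their part in the result was not tested. Lama5, Itgb5, Itga5, Itga2b and Lamb1 did not pass.

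Locus span moved with this difference across all genes. The 4039 tested genes of at most 10 kb had a median difference of 0.45 and the 1686 genes above 80 kb and up to 160 kb one of -0.42, of which 44.5% were called lower in replicate 2. The 7 members in that span class had a median of -1.18, and 6 of them were called lower. The 2 members above 160 kb, Dst (400 kb) and Lama3 (249 kb), stood at -1.46 and -1.40, where the 1360 genes of that class had a median of -0.33. Lamb2, with a span of 10.7 kb, was lower by -0.63 ± 0.15 (limma, adjusted p = 0.0124), where genes above 10 kb and up to 20 kb had a median of 0.11. When a trend on locus span was taken out of each library, 13 members were lower and 2 higher (limma), a setting chosen after seeing the data; Lama5 then passed at 0.66 and Cd151 and Lamb3 no longer did. The part of transcript length or RNA quality in this difference was not tested.

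**Figure D3:**
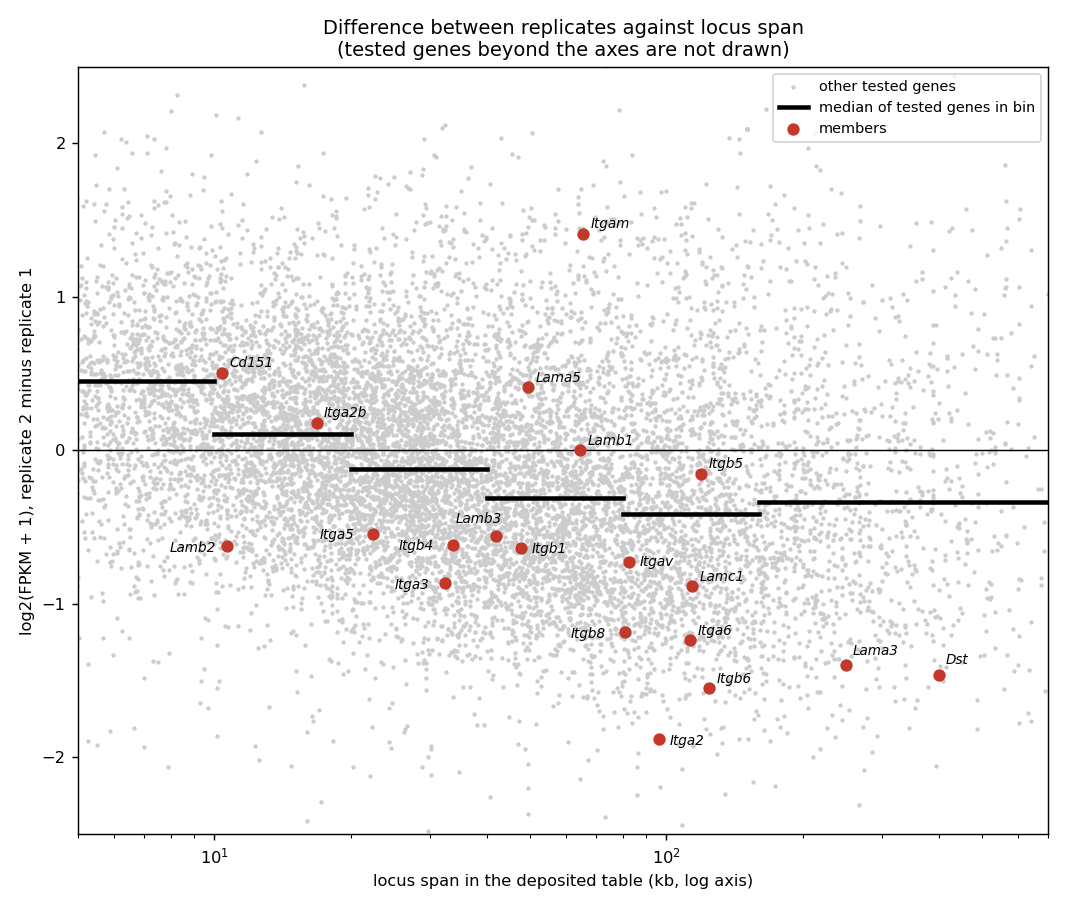
Log2(FPKM + 1) in replicate 2 minus replicate 1, averaged over the genotypes, against locus span (kb, log axis); red points are 20 tested members, grey points the other tested genes within the axes, and black bars the median of all tested genes in each span class. Medians run from 0.45 in the shortest class to -0.42 and -0.33 in the 2 longest, and Itga2, Itgb6, Dst and Lama3 lie below the bar of their class.

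SOX9 peaks lay near many of these genes in both cell types. A member was counted when a peak overlapped its locus extended by 10 kb on both sides. HFSC list 1 (8181 peaks) had a peak at 21 of 41 members, where 22.6% of all gene rows had one. HFSC list 2 (2989 peaks) had one at 14 members, where 14.4% of rows had one, and the IFE list (5209 peaks) at 20, where 22.5% of rows had one. Both HFSC lists had a peak at 13 members (31.7%), against 10.6% of rows, and either HFSC list at 22, against 26.4%. All 3 lists had one at 10 members, against 8.7% of rows, and any list at 25, against 32.7%. Long loci collect more peaks. Among rows spanning at least 50 kb 18.2% had a peak in both HFSC lists, and 8 of 26 members of that span (30.8%) did. At that span any list had a peak at 14 of 26 members (53.8%), against 51.0% of rows, so these shares were close. The IFE list had one at 11 of the 26 (42.3%), against 35.6% of rows. HFSC list 1 had one at 13 of the 26, against 38.0%, and HFSC list 2 at 9 (34.6%), against 22.5%. Of the 21 tested members 12 had a peak in both HFSC lists, where 17.5% of tested genes did. Of the 20 members below the filter 1 did, where 6.3% of such genes did: Lama2, at 0.0842 and 0.220 FPKM in cKO-labelled libraries and 0.0525 and 0.0391 FPKM in the controls. The lists hold no peak height, so that binding strength could not be compared, and the single IFE list has no replicate.

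The 13 members with peaks in both HFSC lists include the laminin-binding and hemidesmosome genes Dst, Itgb4, Cd151, Itga6 and Itga3, the laminin chains Lama5, Lama3 and Lama2, and Itgb6, Itga2, Itgb8 and Itga2b. Among all rows 9.5% had overlapping peaks of the 2 lists and 10.6% had peaks in both lists. At 12 of the 13 members the peaks of the 2 lists overlapped each other. The exception was Itga6, where list 1 had peaks at mm9 chr2:71640307-71640758 and chr2:71643093-71643657 and list 2 had its peak at chr2:71625168-71625886; the second and the last of these each overlap an IFE peak. Itgb4 had overlapping peaks of all 3 lists at the low-coordinate end of its locus, in list 1 at chr11:115835828-115836719. Dst had one within its locus at chr1:34216151-34217335, also in all 3 lists. Itga3 had one 5716 bp inside its 5′ end, in list 1 at chr11:94931218-94932399.

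Merged over the lists, the peaks near members formed 60 regions, 9 of them in all 3 lists, 17 in 2 lists and 34 in 1. Regions in both HFSC lists and not in the IFE list numbered 5 and lay in Itgb8, Itga2b, Itgb6, Dst and Lama2. The members Itgb8, Itga2b and Lama2 had no IFE peak within 10 kb at all, which makes 3 of 41 members, against 1.93% of rows. In Itgb8, the member with the largest genotype difference, list 1 had its peak at chr12:120466236-120466884 and list 2 at chr12:120466195-120466857, inside the locus and 10391 and 10418 bp from its 5′ end. Whether this region acts on Itgb8 was not tested. Itgb1, Itga7 and Itgb7 had a peak in the IFE list alone (3 of 41 members, against 6.31% of rows). In Itgb1 the IFE peak, chr8:131209230-131210216, covers the 5′ end. Itgb6, of 124 kb, held 7 peaks of list 1, the most of any member, followed by Lama3 with 6. Among all rows 26.4% had a peak in either HFSC list and 10.6% in both. A peak in 1 HFSC list only was found at 9 members, Lamb3, Itgb5, Itga5, Itga1, Itga10, Itga11, Itga9, Itgae and Nid2, of which the last 6 were below the filter. Of those 6, Itga1 had the highest mean over the 4 libraries, at 0.846 and 0.389 FPKM in cKO-labelled libraries and 1.43 and 0.356 FPKM in the controls, and Itga9 was listed at 0 in all but the replicate 1 control. The locus of Itga9 is shared with Gm10157, which stood at 83.4 to 108 FPKM.

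**Figure D4:**
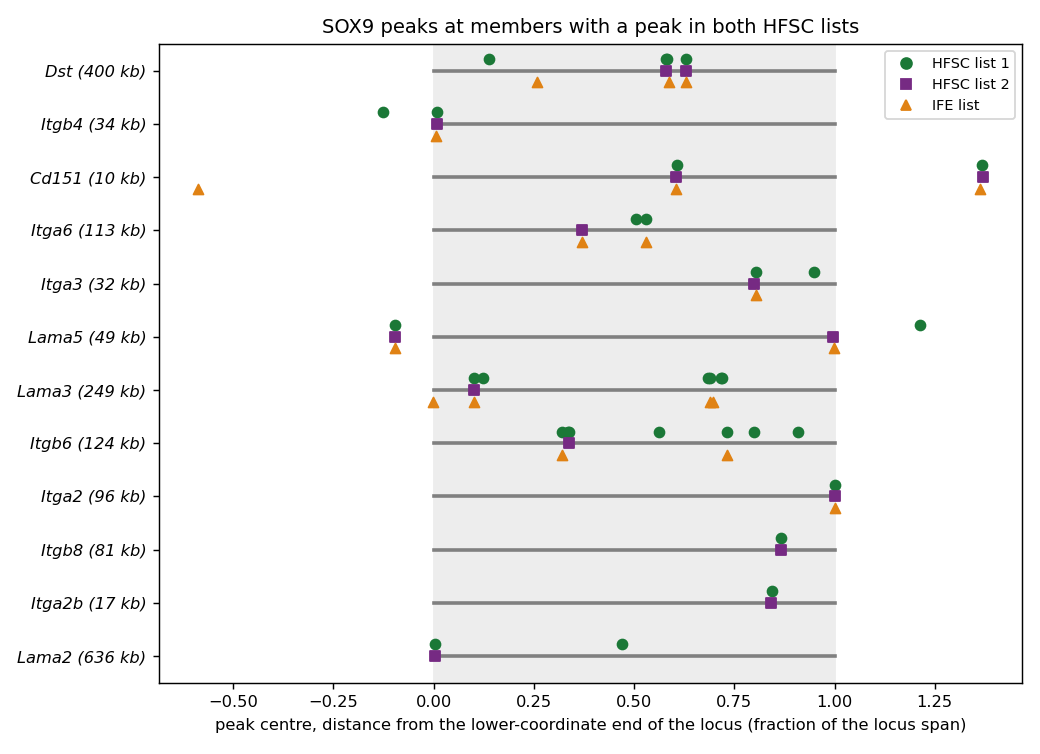
Centres of SOX9 peaks within 10 kb of 12 members that have a peak in both HFSC lists, as a fraction of the locus span from its lower-coordinate end (grey bar, 0 to 1); green circles are HFSC list 1, purple squares HFSC list 2 and orange triangles the IFE list. Marks of all 3 lists stand above one another at Dst, Itgb4, Cd151, Itga3, Lama5, Lama3 and Itga2, and Itgb8, Itga2b and Lama2 have no triangle.

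The RefSeq promoter table gives a strand for 26 members. Only the outer edge of each locus was compared with the peaks, so further starts listed for Dst, Cd151, Itga3, Itgb6 and Lamb3 were not checked. Peaks covered the 5′ end of the locus in 5 of these 26 members, a count for which no share over all genes was computed. At Itga2 peaks of all 3 lists did so (list 1 at chr13:115721994-115722671), at Lama5 those of HFSC list 2 and the IFE list, at Lamb3 that of HFSC list 1 (chr1:195127419-195128455), and at Itgb1 and Itgb5 those of the IFE list alone. The promoters of these 5 genes are shown because a peak covers the start of the gene, and that of Itgb8 because the gene differed in both pairs. Each runs from 250 bases before the gene's start to 50 after it, is given 5′ to 3′ on the gene's strand from RefSeq on GRCm38.p6, and was not aligned to the mm9 peak coordinates. Capitals mark the 6-base SOX core sequences ACAATG and ACAAAG or their reverse complements CATTGT and CTTTGT, searched on both strands. The windows are chr13:114932051-114932350 on the minus strand for Itga2, chr2:180225810-180226109 on the minus strand for Lama5, chr1:193301744-193302043 on the plus strand for the first of 2 listed starts of Lamb3, chr8:128685404-128685703 on the plus strand for Itgb1, chr16:33829415-33829714 on the plus strand for Itgb5 and chr12:119238227-119238526 on the minus strand for Itgb8.
Itga2: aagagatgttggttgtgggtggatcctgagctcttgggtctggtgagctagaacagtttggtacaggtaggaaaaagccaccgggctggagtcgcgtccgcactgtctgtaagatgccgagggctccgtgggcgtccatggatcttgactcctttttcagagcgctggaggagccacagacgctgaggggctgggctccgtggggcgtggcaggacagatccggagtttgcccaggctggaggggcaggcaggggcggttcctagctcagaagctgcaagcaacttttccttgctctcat
Lama5: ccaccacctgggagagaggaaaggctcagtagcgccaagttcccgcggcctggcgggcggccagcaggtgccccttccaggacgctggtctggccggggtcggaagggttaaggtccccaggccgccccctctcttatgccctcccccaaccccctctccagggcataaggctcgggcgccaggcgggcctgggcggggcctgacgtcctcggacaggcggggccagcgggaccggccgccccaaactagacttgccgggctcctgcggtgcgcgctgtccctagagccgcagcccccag
Lamb3: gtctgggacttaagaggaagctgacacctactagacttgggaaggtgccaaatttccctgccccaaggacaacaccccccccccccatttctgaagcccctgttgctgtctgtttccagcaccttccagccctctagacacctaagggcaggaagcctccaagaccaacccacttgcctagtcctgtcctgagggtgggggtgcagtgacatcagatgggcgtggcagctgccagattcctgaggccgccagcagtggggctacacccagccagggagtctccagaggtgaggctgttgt
Itgb1: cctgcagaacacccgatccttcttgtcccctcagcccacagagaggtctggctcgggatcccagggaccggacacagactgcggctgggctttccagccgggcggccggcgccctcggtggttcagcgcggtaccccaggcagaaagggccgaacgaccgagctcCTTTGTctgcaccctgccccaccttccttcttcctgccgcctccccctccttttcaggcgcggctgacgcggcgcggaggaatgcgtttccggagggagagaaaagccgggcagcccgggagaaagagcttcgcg
Itgb5: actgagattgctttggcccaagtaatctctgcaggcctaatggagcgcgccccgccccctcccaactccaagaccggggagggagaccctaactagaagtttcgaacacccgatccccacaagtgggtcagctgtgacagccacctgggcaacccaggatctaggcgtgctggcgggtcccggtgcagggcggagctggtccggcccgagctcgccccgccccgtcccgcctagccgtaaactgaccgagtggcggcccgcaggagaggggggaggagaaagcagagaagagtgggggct
Itgb8: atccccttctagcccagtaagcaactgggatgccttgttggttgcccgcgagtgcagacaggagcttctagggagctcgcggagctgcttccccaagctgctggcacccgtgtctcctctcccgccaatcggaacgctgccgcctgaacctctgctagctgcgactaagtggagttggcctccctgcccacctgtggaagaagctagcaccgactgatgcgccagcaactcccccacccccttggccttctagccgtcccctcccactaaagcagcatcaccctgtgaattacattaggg

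Of these 6 windows only that of Itgb1 holds a core sequence, CTTTGT, once, so no matches overlap. The table gave 31 promoters for 26 of the 41 members, and 4 of them (12.9%) held either core, against 28.6% of the 32841 promoters searched; ACAATG was found on either strand in 12.6% and ACAAAG in 18.7% of all promoters. The other members' promoters with a core are 1 each of Dst, Itga3 and Itga8. The shown windows are rich in G and C, from 59.3% in Itga2 and Lamb3 to 72.7% in Lama5, and CpG counts run from 2 in Lamb3 to 27 in Itgb1.

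Genes known to act with the members also held no call between the genotypes, where 0.0% of all genes were called without the block and 0.284% with it. They were listed by function, with earlier results of these data known. Of 9 other hemidesmosome and basal surface genes 9 were tested and 0 called in either fit (limma), with a median change of -0.07. Col17a1, the transmembrane collagen of hemidesmosomes, stood at 2018 and 1177 FPKM in cKO-labelled libraries and 2012 and 1079 FPKM in the controls. Plec (plectin), which ties β4 to keratin, had a log2 difference of -0.27 ± 0.14, Cdcp1 by -0.20 ± 0.14, Dag1 by -0.16 ± 0.13 and Krt5 by 0.22 ± 0.19 (limma with the block, adjusted p from 0.513 to 0.731). Of 26 cytoplasmic adaptors of integrins 24 were tested and 0 called, with a median of -0.08. Nedd9, a docking protein of focal adhesions, came nearest, at 12.1 and 3.75 FPKM in cKO-labelled libraries and 21.7 and 6.90 FPKM in the controls (-0.76 ± 0.16; limma with the block, adjusted p = 0.189). Tgfb1i1 had a log2 difference of -0.53 ± 0.19, Zyx by 0.31 ± 0.12 and Ptk2b by 0.30 ± 0.15.

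Of 26 other basement membrane genes 19 were tested and 0 called in either fit (limma), with a median change of -0.24; 9 of the 19 were lower and 2 higher in both pairs, against 29.6% and 28.4% of all tested genes. Sparc, a collagen-binding matricellular protein, stood at 170 and 134 FPKM in cKO-labelled libraries and 288 and 260 FPKM in the controls (-0.86 ± 0.12; limma with the block, adjusted p = 0.0737). Npnt, the bulge-secreted ligand of α8β1, stood at 23.7 and 15.4 FPKM in cKO-labelled libraries and 38.5 and 31.8 FPKM in the controls (-0.84 ± 0.15; limma with the block, adjusted p = 0.103). Ecm1 stood at 436 and 287 FPKM in cKO-labelled libraries and 695 and 476 FPKM in the controls (-0.70 ± 0.12; limma with the block, adjusted p = 0.103). Ntn4 had a log2 difference of -0.81 ± 0.23. Of 22 other integrin ligands 12 were tested and 0 called, with a median of 0.33. Tnc (tenascin C) stood at 27.7 and 17.3 FPKM in cKO-labelled libraries and 14.7 and 5.35 FPKM in the controls (1.20 ± 0.19; limma with the block, adjusted p = 0.0897). Ctgf had a log2 difference of -0.73 ± 0.13, Cyr61 by 0.61 ± 0.22 and Icam1 by 0.43 ± 0.16.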

How the data were processed

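The authors deposited FPKM values per gene (per the file headers), 1 column for each of the 4 RNA libraries. Expression libraries were made with a TruSeq RNA kit, per the labels' protocols. Bowtie, TopHat, TopHat2, Cufflinks 1.0.3 and mm9 are named, without roles, in the submitters' processing notes. The deposited peak lists give mm9 positions and no height, and the sources used here name no caller. Read depth is not given, so no counting interval was used. Loci are those of the table, which overlapping genes can share.

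The members and lists were chosen with earlier results of these data known. Log2(FPKM + 1) was tested with limma 3.58.1 in R 4.3.3 (mean trend, two-sided, Benjamini-Hochberg over 14455 genes with a mean of at least 1 FPKM, threshold 0.05), which understates changes of low genes. The replicate numbers pair the libraries by sex, age and treatment days in the labels; deviations of same-numbered libraries had a correlation of 0.812 over the genes, and genes are no independent replicates. The fit was also run on simulated data, with planted changes larger than that of any member. For the fit without the block these data held no replicate difference, so they cannot show how that fit behaves on the libraries used here. Named were members with a mean of at least 10 FPKM, with a HFSC peak, past a threshold or differing by at least 0.5 in both pairs, and from each other list up to 4 genes by the smallest p of the blocked fit. Input libraries were not analysed here. For 1 member, which stays in the counts and fits, no values are reported here. Promoters came from RefSeq (GRCm38.p6) and were matched by symbol.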

Additional observations from a re-analysis of the deposited data

Results flagged for a closer look

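For 6 tested members the cKO-labelled library differed from its control in opposite directions in the 2 pairs; with 1 pair for each replicate number this difference was not tested. The log2 differences, labelled cKO minus control, in the replicate 1 and the replicate 2 pair were -0.47 and 0.81 for Itga5, -0.033 and 0.78 for Itga2b, -0.50 and 0.58 for Lamb1, -0.28 and 0.18 for Itgb4, -0.060 and 0.27 for Itgb1, and -0.077 and 0.070 for Itga2.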

How the results depend on the processing

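No member was called between cKO-labelled libraries and controls in any fit of all 4 libraries, whether without or with the replicate block. Over all genes the count called was 0 without the block and 41 with the replicate block. With the replicate block it was 33 at a pseudocount of 0.1, 78 at 5, 53 at a filter of 5 FPKM, 45 with median-ratio scaling, 3 with quantile normalization and, in a setting chosen after seeing the data, 78 with the trend on locus span removed; it was 0 with the block and no filter or no mean trend. With 1 library left out, 1 group held a lone library, so no calls of those fits are given. Some changes near 0 turned: with and without the replicate block, Cd151 was -0.049 and Lamb3 -0.094 under quantile normalization, and Itga2 was 0.034 with median-ratio scaling, 0.0014 at a pseudocount of 0.1, 0.017 with quantile normalization and 0.025 with the span trend removed. The cause was not tested.

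With 1 library left out, part of the replicate difference enters every change. The changes, labelled cKO minus control, then ranged from -0.23 to 0.30 for Cd151, -0.95 to 0.53 for Dst, -0.98 to 0.97 for Itga2, -0.55 to 0.34 for Itga3, -0.42 to 0.76 for Itga5, -0.54 to 0.77 for Itga6, -0.32 to 1.12 for Itgam, -0.62 to 0.22 for Itgav, -0.29 to 0.51 for Itgb1, -0.47 to 0.37 for Itgb4, -0.83 to 0.73 for Itgb6, -0.57 to 0.85 for Lama3, -0.23 to 0.31 for Lamb1, -0.75 to 0.0097 for Lamb2, -0.21 to 0.39 for Lamb3, and -0.59 to 0.32 for Lamc1. Itgb8 stayed below 0, from -1.37 without the replicate 1 cKO-labelled library to -0.14 without that of replicate 2.

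For replicate 2 against replicate 1, all genes gave 7221 calls, 3293 with no filter and between 0 and 6296 with 1 library left out, and members 16 calls, between 0 and 14 with 1 library left out. Differences near 0 turned for Cd151 (-0.0089 with quantile normalization), Itgb5 (0.23 with the span trend removed) and Lamb1 (-0.0012 with median-ratio scaling and -0.0019 at a pseudocount of 0.1). With 1 library left out, in fits without a genotype term, the differences ranged from -0.21 to 0.57 for Itga2b, -0.38 to 0.076 for Itgb5 and -0.29 to 0.29 for Lamb1. Members with a peak in both HFSC lists within 10 kb numbered 13. In that window the share of genes with one was 10.6% of all rows, 17.5% of tested genes and 18.2% of rows of at least 50 kb. In a window of 50 kb it was 21 of 41 members (51.2%), against 20.9% of all rows. Of members spanning at least 50 kb it was then 12 of 26 (46.2%), against 26.9% of such rows. Read depth is unknown, so how precisely the low members were measured could not be judged.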
